A study of Mus musculus with 31 samples.

Results

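The 38 genes described here encode the contact-dependent and secreted axon guidance systems of the Eph, Slit, netrin and Nell families, 15 of them ligands and 23 of them receptors. They were taken by symbol: 9 Eph A receptors, 5 Eph B receptors, 5 ephrin-A ligands, 3 ephrin-B ligands, 3 Slits, 3 Robos, 2 netrins, 6 netrin receptors and the 2 Nell genes. All 38 were among the 47729 genes of the count table, of which 33331 had at least 1 count, and all 38 passed the filter on low counts that left 19332 genes for testing. Their levels were read in 31 RNA-seq libraries made from pieces of mouse olfactory nerve, olfactory nerve layer (ONL, the outermost layer of the olfactory bulb, where olfactory axons arrive) and trigeminal nerve.

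Eph receptors are receptor tyrosine kinases that bind ephrins on the surface of neighbouring cells, and both partners can signal. Ephrin-A ligands are held in the membrane by a lipid anchor and bind mainly Eph A receptors, while ephrin-B ligands cross the membrane and bind mainly Eph B receptors. Slits are secreted ligands of the Robo receptors and are best known for repelling axons. Netrin-1 attracts axons through Dcc and repels them through Unc5 receptors, and Nell2 is a secreted glycoprotein that binds Robo3. In the olfactory system, ephrins and Slit-Robo signalling are known for their part in sorting sensory axons on the bulb. The glia of the olfactory nerve and ONL are olfactory ensheathing cells and those of the trigeminal nerve are Schwann cells, both from the neural crest.

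All embryos carried the Sox10:H2BVenus transgene, in which Sox10 regulatory sequence drives a nuclear fluorescent protein in glia and other Sox10-positive cells, and no treatment was given. Pieces were cut by laser from cryosections, and tissue from 4 to 7 sections was pooled for each library, so axons, vessels and connective tissue came with the glia. Cutting was guided by the fluorescence of the transgene and by position. The "inner" and "outer" ONL mean Sox10-positive cells nearer to and further from the bulb, not a molecular class. The groups were olfactory nerve of the nasal mucosa at E11.5 (E for days of embryonic development, 4 libraries from 2 embryos), at E13.5 (7 libraries) and at E16.5 (4 libraries), ONL at E13.5 (5 libraries), the outer and the inner part of the ONL at E16.5 (4 libraries each), and trigeminal nerve at E16.5 (3 libraries from 3 embryos). The other groups came from 4 embryos each. At E16.5 each library of a group thus came from a different embryo, while in the earlier groups libraries outnumbered embryos. Which libraries share an embryo, within the earlier groups or between groups, was not given. The spread was estimated over all groups, so p-values measure the spread between pieces, some of them from the same embryo.

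Before E16.5 the labels of 10 libraries went against the group means that the study tabulated. The libraries labelled E11.5_ON1 to E11.5_ON4 and E13.5_ON1 matched the tabulated E13.5 ONL. The libraries labelled E13.5_ONL2 to E13.5_ONL5 matched E11.5 nerve, and the library labelled E13.5_ONL1 matched E13.5 nerve. The tabulated groups were used, and for comparisons that use libraries before E16.5 the counts with the groups as labelled are given, with values for the genes described by fold change. All 15 libraries at E16.5 matched their labels. Olfactory bulb neuron markers (7 genes) summed to 994.7 to 1254 CPM (counts scaled to a library of 1000000) in the 5 libraries used as E13.5 ONL and to 57.68 to 92.03 CPM in the 7 used as E13.5 nerve.

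Library totals ran from 3512627 to 36705535 counts. Of the glial markers, 4 (Sox10, Fabp7, Erbb3 and S100b) are given here, and their sum at E16.5 was 14974 to 26951 CPM in outer ONL, 16867 to 22062 in inner ONL, 1298 to 3175 in olfactory nerve and 663.9 to 724.8 in trigeminal nerve. Before E16.5 it was 517.4 to 924.3 CPM in E11.5 nerve, 418.6 to 921.8 in E13.5 nerve and 4055 to 6254 in E13.5 ONL. Fabp7 sets much of this sum: in the libraries labelled E11.5_ON, used as E13.5 ONL, its mean was 4786 CPM. Sox10 had 123 CPM there, Erbb3 63.7 and S100b 8.25. Between olfactory and trigeminal nerve at E16.5, 1 of the 4 genes was called higher and 2 lower, so the sum does not measure the share of glia. Mesenchyme markers (6 genes) had another order than the glial sum at E16.5, with 1760 to 2938 CPM in olfactory nerve, 484 to 1695 in outer ONL, 248 to 398.6 in inner ONL and 4427 to 6798 in trigeminal nerve. Outer ONL replicate 1 stood apart in its group: it had the highest sum of the 4 glial genes (26951 CPM, others 14974 to 20115), the lowest mesenchyme sum (484 CPM, others 1163 to 1695) and the lowest bulb neuron sum (20.86 CPM, others 54.83 to 176.5). The bulb neuron sum was 143.5 to 253.6 CPM in olfactory nerve and 183.9 to 212 in trigeminal nerve at E16.5, so at such levels it does not measure bulb tissue. In such bulk pieces, fewer cells of a type and less RNA per cell cannot be told apart, and the part of these differences in make-up in the results below was not tested.

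Per kilobase of exon, which allows genes to be compared with each other, Nell2 had the highest mean level of the 38 in outer ONL (250 CPM per kb) and in inner ONL (183.9 CPM per kb). In outer ONL it was followed by Efna5 (35.36 CPM per kb), Efna1 (26.63 CPM per kb) and Efnb1 (15.81 CPM per kb). In olfactory nerve at E16.5 the order began with Efna1 (69.42 CPM per kb), Nell2 (40.2 CPM per kb), Ephb4 (18.72 CPM per kb) and Efna5 (15.26 CPM per kb). In trigeminal nerve it began with Efna1 (57.25 CPM per kb), Efnb1 (36.21 CPM per kb) and Ephb4 (23.8 CPM per kb). All 3 orders were led by ligands, while Ephb4 was the highest receptor in each.

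**Figure D1:**
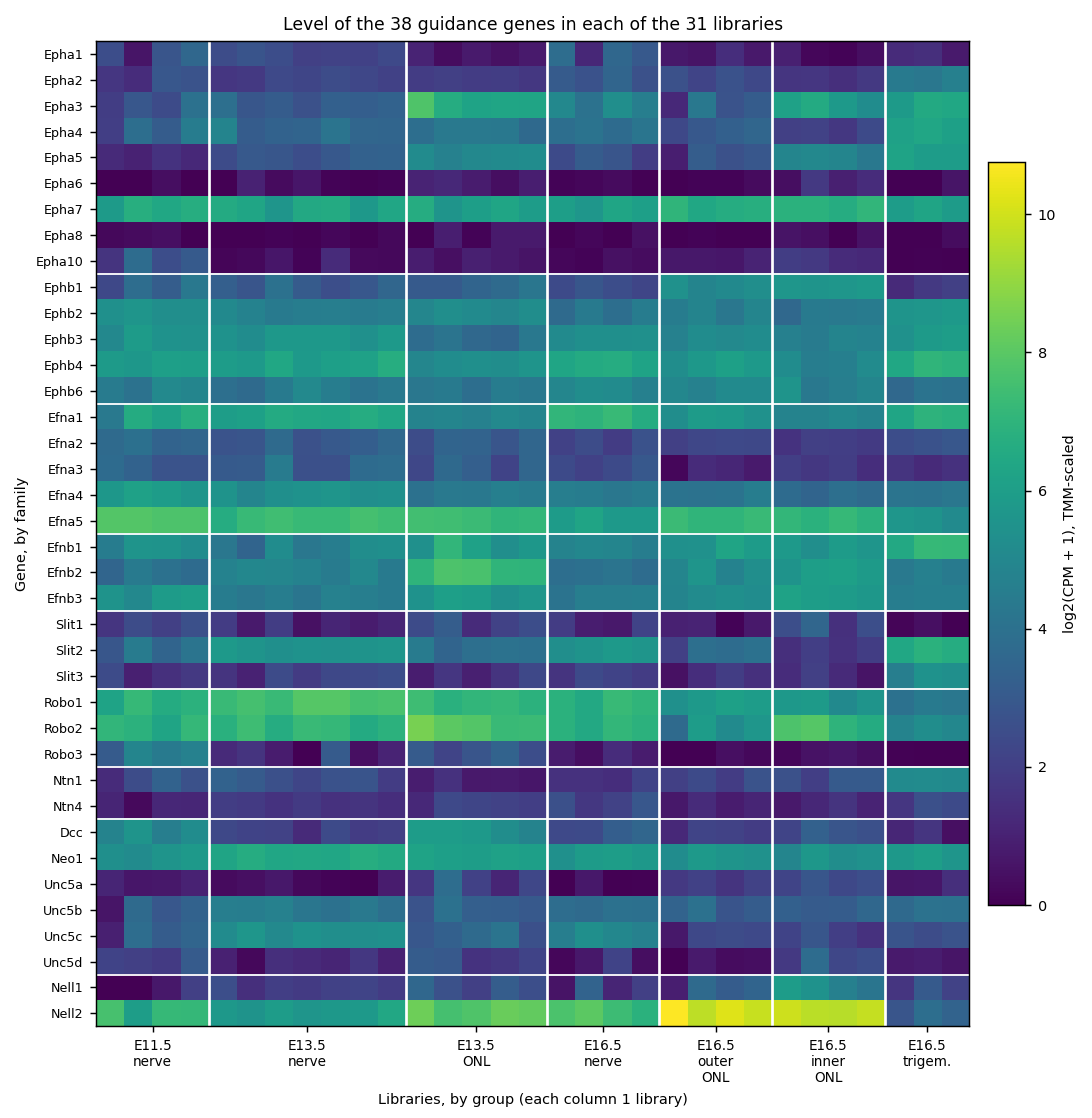
Heat map of log2(CPM + 1) for the 38 genes (rows, by family) in the 31 libraries (columns, by group), with white lines between families and groups. Nell2 is the brightest row in the 8 E16.5 ONL libraries, and Efnb2 and Epha3 are brightest in the 5 libraries used as E13.5 ONL and, for Epha3, in inner ONL and trigeminal nerve.

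A gene was called where the adjusted p was below 0.05 in a fit of all libraries and all tested genes. At E16.5, 19 of the 38 genes were called when outer ONL was compared with olfactory nerve, 8 higher in outer ONL and 11 lower. The share called among all tested genes was 22.0%, with 10.2% higher and 11.8% lower. Between outer ONL and trigeminal nerve 22 of 38 were called (9 higher, 13 lower), against 25.8% of all genes (2617 genes higher, 2372 lower). Between olfactory and trigeminal nerve 21 of 38 were called (11 higher in olfactory nerve, 10 lower), against 23.6% of all genes (13.0% higher, 10.6% lower). The median log2 fold change over the 38 was -0.415, -0.613 and -0.0326 in these comparisons, and over all genes 0.013, 0.0125 and -0.00964. The 3 comparisons share their libraries in pairs and are not independent of each other. Without outer ONL replicate 1, the counts for the first and second comparison were 16 and 21.

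At E16.5, 6 genes were called higher in outer ONL than in either nerve: Nell2, Ephb1, Epha7, Efna5, Efnb2 and Efnb3. Another 5 were called lower there than in either nerve: Epha3, Ephb4, Efna1, Slit2 and Ntn4. Trigeminal nerve was called above both olfactory groups for 9 genes (Epha2, Epha3, Epha4, Epha5, Ephb2, Efnb1, Slit2, Slit3 and Ntn1), and olfactory nerve above both others for 5 (Epha1, Robo1, Robo2, Dcc and Unc5c). In none of the 3 comparisons were Epha6, Epha8, Efna2, Efna4, Neo1, Unc5b, Unc5d and Nell1 called. These patterns, which join several comparisons, were not counted over all tested genes. Whether they were more frequent among the guidance genes than among all genes was therefore not tested.

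**Figure D2:**
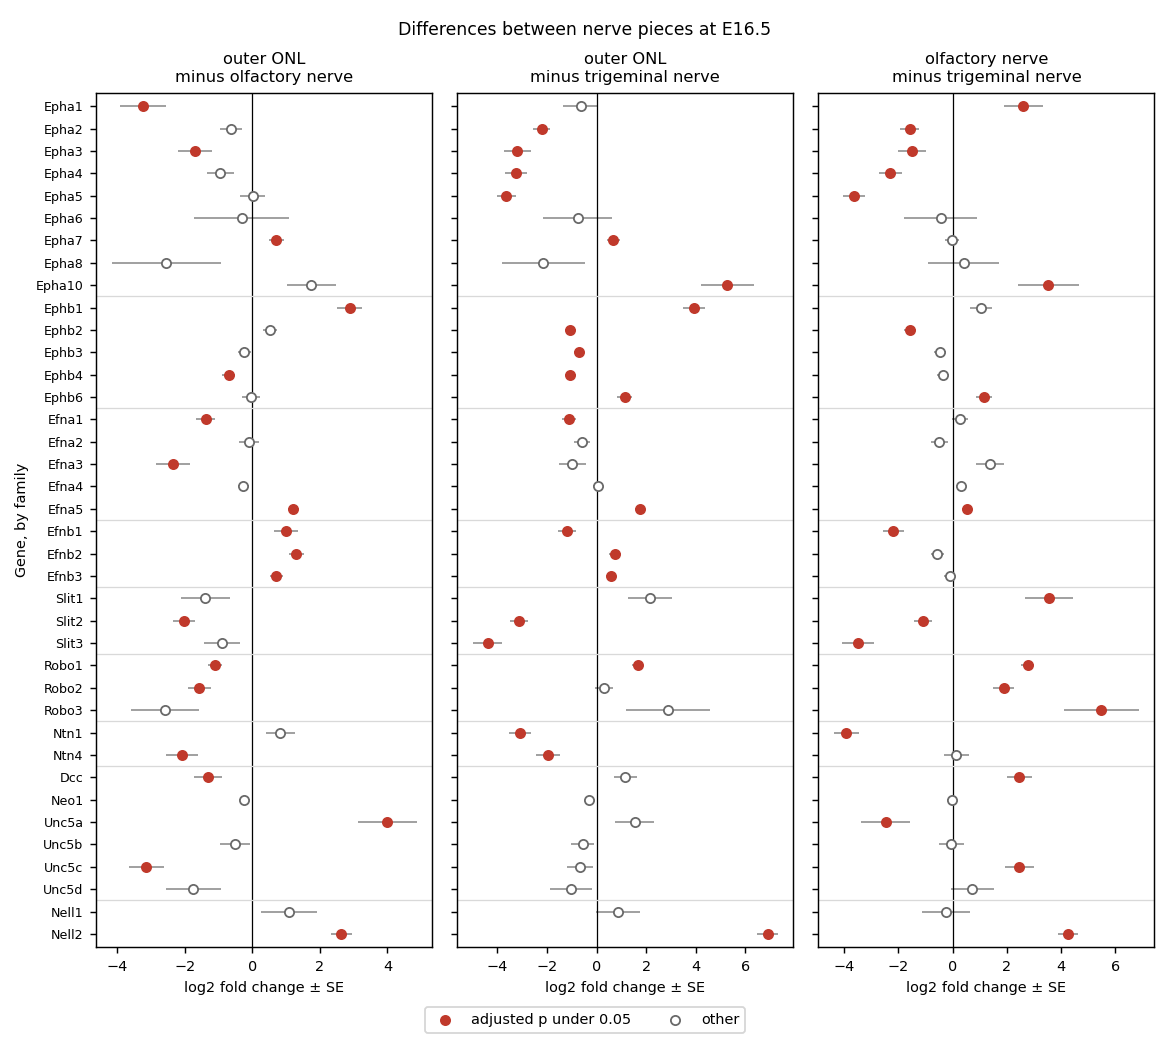
Log2 fold change with its standard error for each of the 38 genes (rows, by family) in the 3 comparisons at E16.5, red where the adjusted p was below 0.05. Nell2 lies to the right in all 3 panels; the points for Epha10 and Robo3 against trigeminal nerve, and for Epha8 in outer ONL, rest on groups with at most 1 count in any library.

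Nell2 was the guidance ligand with the largest difference between olfactory and trigeminal pieces. Its level was 1726, 820, 1214 and 910 CPM in the 4 outer ONL libraries, 966, 799, 764 and 908 in inner ONL, 205, 264, 167 and 115 in olfactory nerve, and 6.05, 13.8 and 9.59 in trigeminal nerve. The outer ONL, olfactory nerve and trigeminal nerve ranges did not overlap. The mean was 1168 ± 409 CPM (SD, n = 4) in outer ONL, 188 ± 63.2 (n = 4) in olfactory nerve and 9.83 ± 3.90 (n = 3) in trigeminal nerve. Outer ONL exceeded olfactory nerve 6.22-fold (log2 fold change 2.64, SE 0.302, adjusted p = 1.14e-07) and trigeminal nerve 119-fold (6.89, SE 0.422, adjusted p = 4.83e-13). Olfactory nerve exceeded trigeminal nerve 19.1-fold (4.25, SE 0.371, adjusted p = 7.68e-10). Outer ONL replicate 1 had the highest Nell2 level, and without it the first difference was 2.37 (adjusted p = 9.38e-07) and the second 6.66 (adjusted p = 8.39e-13). The summed level of the 4 glial genes moved with Nell2 across these groups and was highest in outer ONL replicate 1, and its part in the Nell2 differences was not tested. Among the 4, Fabp7 had the same order as Nell2 (3.56, 7.84 and 4.28 in the 3 comparisons, all called), whereas Sox10 and Erbb3 were called lower in olfactory than in trigeminal nerve (-1.41 and -1.27) and S100b was called in none of the 3.

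Nell1, the other Nell ligand, was low and scattered in outer ONL (0.844, 12.1, 7.68 and 10.2 CPM) and olfactory nerve (0.495, 9.65, 1.17 and 3.15 CPM). These 2 groups overlapped, and the difference of 1.09 (SE 0.830) was not called (adjusted p = 0.399). With the replicate number as a block it was 1.36 (adjusted p = 0.0386). In inner ONL Nell1 was higher, at 17.0 to 60.1 CPM and above every outer ONL library. That difference was called with the replicate block (adjusted p = 0.041) but not without it. Robo3, the receptor that binds Nell2, was near the limit of detection in every E16.5 group. It was at 0.742, 0.309, 1.56 and 0.774 CPM in olfactory nerve, at 0, 0, 0.356 and 0.183 in outer ONL, and at no more than 1 count per library in trigeminal nerve. Olfactory nerve was called above trigeminal nerve (adjusted p = 0.00389), with no fold given because 3 counts was taken as the floor, and the difference from outer ONL was not called (adjusted p = 0.0664).

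The primers below are shown because the Nell2 probe that the study used for in situ hybridisation was amplified with them. The counts are per gene over all its transcripts, not for the amplified stretch. Both are read 5′ to 3′.
Nell2 forward primer: tgcaccaacgacaccatttg
Nell2 reverse primer: ccagctgctaacaaagttgcat

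Ephrin-B ligands were all higher in outer ONL than in olfactory nerve, 3 of 3 called. Efnb2, the ligand of Ephb4 in developing vessels, was at 29.1, 48.0, 26.5 and 38.4 CPM in outer ONL, 13.7, 14.5, 16.7 and 12.8 in olfactory nerve and 19.5, 24.7 and 20.1 in trigeminal nerve. Every outer ONL library lay above every nerve library, and the difference from olfactory nerve was 1.30 (SE 0.219, adjusted p = 4.51e-05). Its difference from trigeminal nerve was smaller, 0.73 (SE 0.234, adjusted p = 0.0197). That difference was not called without outer ONL replicate 2, trigeminal nerve replicate 1 or trigeminal nerve replicate 3 (adjusted p = 0.0745 to 0.0961). Nor was it called with the block (adjusted p = 0.077), although replicate numbers were not taken to mark pairs with trigeminal nerve. Efnb3 was at 27.9, 35.9, 40.0 and 37.0 CPM in outer ONL, 16.1, 23.2, 23.5 and 23.8 in olfactory nerve and 22.3, 23.7 and 24.2 in trigeminal nerve. It exceeded olfactory nerve by 0.70 (SE 0.193, adjusted p = 0.00811) and trigeminal nerve by 0.59 (SE 0.209, adjusted p = 0.0358), the second call ending with any of 6 libraries left out (adjusted p = 0.0629 to 0.0994). Efnb1 instead peaked in trigeminal nerve, at 88.4, 146 and 141 CPM, against 41.5, 42.0, 76.9 and 58.0 in outer ONL and 27.5, 30.6, 28.5 and 22.8 in olfactory nerve. The 3 groups did not overlap for Efnb1. Olfactory nerve was 4.57-fold below trigeminal nerve (-2.19, SE 0.381, adjusted p = 6.06e-05), while the call of outer ONL over olfactory nerve (1.00, SE 0.355, adjusted p = 0.0421) ended with any of 6 libraries left out (adjusted p = 0.0566 to 0.146) and that against trigeminal nerve (-1.20, SE 0.374, adjusted p = 0.0172) with any of 4 (adjusted p = 0.054 to 0.0658).

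Among the ephrin-A ligands, Efna5 and Efna1 went in opposite directions between outer ONL and olfactory nerve. Efna5 was at 158, 129, 130 and 154 CPM in outer ONL, 59.4, 77.3, 53.7 and 55.7 in olfactory nerve and 49.6, 44.7 and 34.4 in trigeminal nerve. The outer ONL libraries were all above the others, by 1.21 against olfactory nerve (SE 0.163, adjusted p = 1.45e-06) and 1.73 against trigeminal nerve (SE 0.183, adjusted p = 1.34e-08). The gap between the nerves, 0.52 (SE 0.176, adjusted p = 0.0299), was not called without olfactory nerve replicate 2 (adjusted p = 0.124) or trigeminal nerve replicate 3 (adjusted p = 0.159). Efna1 was at 37.3, 59.3, 55.6 and 42.7 CPM in outer ONL, 134, 123, 151 and 99.7 in olfactory nerve and 78.6, 122 and 114 in trigeminal nerve. Outer ONL lay below both nerves without overlap, by -1.38 against olfactory nerve (SE 0.280, adjusted p = 0.000443) and -1.10 against trigeminal nerve (SE 0.295, adjusted p = 0.00521). Efna3 was much lower, at 0.153, 1.51, 1.21 and 0.732 CPM in outer ONL and 4.33, 3.22, 4.29 and 6.75 in olfactory nerve, and the 5.09-fold difference was called (-2.35, SE 0.505, adjusted p = 0.00086). Efna2 stayed between 2.73 and 6.58 CPM and Efna4 between 15.5 and 23.1 CPM in the libraries of outer ONL and both nerves, with no call in the 3 comparisons.

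The genes Ephb1, Efna5 and Efnb2 were among those called higher in outer ONL than in either nerve, and the 250 bases before their annotated starts are printed to show how their upstream sequence differs in composition. Sequences are from RefSeq on GRCm38.p6, written 5′ to 3′ on the strand of the gene, with CG pairs in capitals. The Ephb1 window is chr9:102354694-102354943 (minus strand), with 10 CG pairs and 54.0% G or C, the Efna5 window is chr17:62881318-62881567 (minus strand), with 32 CG pairs and 74.8%, and the Efnb2 window is chr8:8661243-8661492 (minus strand), with 27 CG pairs and 72.0%.
Ephb1: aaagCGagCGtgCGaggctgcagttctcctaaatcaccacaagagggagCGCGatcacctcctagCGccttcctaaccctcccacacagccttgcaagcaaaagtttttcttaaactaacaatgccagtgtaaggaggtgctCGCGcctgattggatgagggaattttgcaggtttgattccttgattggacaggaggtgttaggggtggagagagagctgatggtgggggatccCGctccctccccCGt
Efna5: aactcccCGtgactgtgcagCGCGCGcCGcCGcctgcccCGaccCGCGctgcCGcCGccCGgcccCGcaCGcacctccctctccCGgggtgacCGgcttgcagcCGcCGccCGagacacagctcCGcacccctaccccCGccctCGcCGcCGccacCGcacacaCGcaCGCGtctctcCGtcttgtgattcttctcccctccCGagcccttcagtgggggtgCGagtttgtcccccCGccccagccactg
Efnb2: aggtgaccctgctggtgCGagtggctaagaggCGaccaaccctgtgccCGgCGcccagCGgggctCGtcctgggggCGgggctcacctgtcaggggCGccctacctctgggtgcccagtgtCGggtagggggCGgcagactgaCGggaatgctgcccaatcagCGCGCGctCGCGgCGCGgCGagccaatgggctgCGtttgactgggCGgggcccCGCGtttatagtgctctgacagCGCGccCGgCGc

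Upstream windows were found for 32 of the 38 genes, 37 windows in all because some genes have several starts. Their median G or C content was 65.6% against 52.4% over the 32851 windows of all genes, and their median number of CG pairs was 19 against 6. The letters ACAAAG or, on the other strand, CTTTGT, a core motif of Sox factors, were in 5.41% of the 37 windows (those of Efna2 and Efna4) and in 5408 of the 32851 windows of all genes (16%). Of the 6 genes called higher in outer ONL than in either nerve, 4 had a window and 0 of these windows held the motif.

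The Eph B receptor Ephb1 was the receptor that set outer ONL most apart from both nerves. It was at 42.6, 27.8, 33.2 and 38.6 CPM in outer ONL, 49.6, 46.2, 49.1 and 54.9 in inner ONL, 4.39, 6.37, 4.81 and 3.76 in olfactory nerve and 1.44, 2.49 and 3.05 in trigeminal nerve. No ONL library came near any nerve library, with a 7.36-fold difference from olfactory nerve (2.88, SE 0.373, adjusted p = 7.95e-07) and a 15.3-fold difference from trigeminal nerve (3.93, SE 0.441, adjusted p = 4.17e-08). Ephb4, the vascular receptor of ephrin-B2, was lower in outer ONL than in either nerve, at 38.2, 51.9, 67.6 and 55.3 CPM, against 78.0, 95.5, 98.9 and 75.0 in olfactory nerve and 83.0, 129 and 119 in trigeminal nerve. Its differences were -0.71 (SE 0.203, adjusted p = 0.0111, without outer ONL replicate 1, adjusted p = 0.0524) and -1.05 (SE 0.216, adjusted p = 0.000394). Endothelial markers (5 genes) summed to 364.7 to 638.3 CPM in outer ONL, 435.3 to 749.6 in olfactory nerve and 431.5 to 756.2 in trigeminal nerve, and mural cell markers (4 genes) to 259.7 to 445.4, 655.3 to 2792 and 822.8 to 1394. Ephb2 was highest in trigeminal nerve, at 46.0, 49.1 and 55.9 CPM, against 18.5 to 28.7 in outer ONL and 12 to 21.6 in olfactory nerve. Outer ONL was called above olfactory nerve for Ephb2 with the replicate block (0.52, adjusted p = 0.0373), but not without it. Ephb6, whose kinase domain is inactive, was instead lowest in trigeminal nerve, at 11.3, 16.2 and 15.2 CPM, against 25.5 to 34.4 in outer ONL and 24.7 to 37.7 in olfactory nerve. Ephb3 was at 42.1, 57.4 and 61.9 CPM in trigeminal nerve and 25.5 to 36.8 in outer ONL, a call (adjusted p = 0.00922) that ended without trigeminal nerve replicate 3 (adjusted p = 0.0602).

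Of the 9 Eph A receptors, 4 were called higher in trigeminal nerve than in either olfactory group, a pattern that was not counted over all genes. Epha5 was at 73.7, 60.9 and 60.8 CPM there, against 0.844, 8.10, 5.41 and 6.47 in outer ONL and 4.33, 7.67, 6.04 and 2.88 in olfactory nerve. The 2 olfactory groups overlapped fully, and each differed from trigeminal nerve by -3.64 (SE 0.394, adjusted p = 2.29e-08 for outer ONL and 3.78e-08 for olfactory nerve). Epha4, which binds ephrins of both classes, was at 70.6, 80.3 and 69.2 CPM in trigeminal nerve, 4.06, 6.84, 8.96 and 10.8 in outer ONL and 13.7, 16.1, 12.5 and 16.9 in olfactory nerve. Trigeminal nerve stood 9.54-fold above outer ONL (-3.25, SE 0.438, adjusted p = 1.01e-06), and the 2 olfactory groups, which did not overlap, differed by -0.95 (SE 0.400, adjusted p = 0.0901, with the replicate block -1.04, adjusted p = 0.0149). Epha3 was at 56.5, 91.9 and 82.9 CPM in trigeminal nerve, 31.8, 15.8, 39.4 and 23.4 in olfactory nerve and 1.38, 18.6, 5.69 and 7.75 in outer ONL. Outer ONL was below olfactory nerve (-1.71, SE 0.503, adjusted p = 0.0131) with 1 library inside the nerve range, and below trigeminal nerve by 9.15-fold (-3.19, SE 0.543, adjusted p = 3.51e-05). The gap between the nerves for Epha3 (-1.48, adjusted p = 0.0348) was not called when any of 5 libraries was left out (adjusted p = 0.0512 to 0.117). Epha2 was at 20.6, 18.4 and 25.1 CPM in trigeminal nerve, against 3.64 to 5.48 in outer ONL (-2.21, SE 0.355, adjusted p = 1.55e-05) and 5.31 to 10.3 in olfactory nerve.

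Epha7 had the highest level of the Eph A receptors in outer ONL, at 132, 83.7, 101 and 106 CPM, against 65.1, 48.7, 78.6 and 65.8 in olfactory nerve and 61.0, 76.5 and 59.5 in trigeminal nerve. The groups did not overlap, but the differences were small (0.71 and 0.68) and the calls (adjusted p = 0.0227 and 0.0397) ended with any of 3 and any of 4 libraries left out (adjusted p = 0.0729 to 0.116 and 0.0665 to 0.141). Epha1 was higher in olfactory nerve, at 13.2, 1.30, 11.0 and 6.97 CPM, than in outer ONL, at 0.613, 0.502, 1.64 and 0.671, with nerve replicate 2 inside the outer ONL range. The difference was -3.24 (SE 0.680, adjusted p = 0.000658). Epithelial Krt18 (43.2 to 151 CPM) and Epcam (26.1 to 84.8 CPM) were also high in the olfactory nerve libraries, and their part in the Epha1 difference was not tested. Epha10, a receptor with an inactive kinase, was at 0.613, 0.628, 0.569 and 1.10 CPM in outer ONL and 0.124, 0.0618, 0.390 and 0.277 in olfactory nerve, and at no more than 1 count per library in trigeminal nerve, above which both olfactory groups were called (adjusted p = 0.00026 and 0.0196), the second not without any of 3 libraries (adjusted p = 0.0612 to 0.0851). Epha6 was at most 0.514 CPM and Epha8 at most 0.387 CPM in the libraries of outer ONL and both nerves.

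Slit2 and its receptors Robo1 and Robo2 were lower in outer ONL than in olfactory nerve. Slit2 was at 3.07, 14.2, 12.8 and 15.3 CPM in outer ONL, 38.3, 44.7, 55.0 and 48.4 in olfactory nerve and 84.4, 115 and 99.3 in trigeminal nerve. The 3 groups did not overlap, and outer ONL was 4.09-fold below olfactory nerve (-2.03, SE 0.325, adjusted p = 2.12e-05) and 8.73-fold below trigeminal nerve (-3.13, SE 0.349, adjusted p = 3.87e-08). The gap between the nerves (-1.09, adjusted p = 0.0149) was not called without trigeminal nerve replicate 2 (adjusted p = 0.0752). Slit3 was at 23.5, 43.1 and 39.5 CPM in trigeminal nerve, 0.383, 1.63, 2.84 and 1.83 in outer ONL and 2.04, 4.27, 3.51 and 2.77 in olfactory nerve, so that only trigeminal nerve stood out. It was 21-fold above outer ONL (-4.39, SE 0.602, adjusted p = 1.36e-06) and 11.2-fold above olfactory nerve (-3.49, SE 0.575, adjusted p = 2.88e-05). Mesenchyme markers, given above, had the same order of the 3 groups as Slit2, and their part in it was not tested. Slit1 was at or below 3.43 CPM in all 3 groups, and olfactory nerve (2.72, 0.804, 0.65 and 3.43 CPM) was called above trigeminal nerve (0.108, 0.361 and 0 CPM) by 3.55 (SE 0.897, adjusted p = 0.00377, with the replicate block 0.0548). Replicate numbers were not taken to mark pairs with trigeminal nerve.

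Robo1 was at 116, 89.2, 151 and 129 CPM in olfactory nerve, 41.5, 53.7, 68.8 and 61.2 in outer ONL and 15.3, 20.2 and 18.2 in trigeminal nerve. Its levels thus fell in 3 separate ranges, with outer ONL -1.11 from olfactory nerve (SE 0.204, adjusted p = 0.000149) and 1.65 from trigeminal nerve (SE 0.231, adjusted p = 1.85e-06), and olfactory nerve 6.76-fold above trigeminal nerve (2.76, SE 0.242, adjusted p = 8.33e-10). Robo2 was at 116, 90.0, 137 and 120 CPM in olfactory nerve, 12.3, 60.7, 34.0 and 48.6 in outer ONL and 27.2, 37.2 and 30.3 in trigeminal nerve. Olfactory nerve was above outer ONL 2.97-fold (-1.57, SE 0.335, adjusted p = 0.000785, and -1.30 without outer ONL replicate 1, adjusted p = 0.00291) and above trigeminal nerve 3.67-fold (1.87, SE 0.374, adjusted p = 0.000333). Outer ONL and trigeminal nerve overlapped for Robo2 and differed by 0.30 (SE 0.357, adjusted p = 0.589). The Robo family therefore held 3 of 3 genes called higher in olfactory than in trigeminal nerve (13.0% of all genes were), while Slit2 and Slit3 were called lower. Of the olfactory epithelium and sensory neuron markers (7 genes), 5 were called lower in outer ONL than in olfactory nerve (median -2.01). Between the nerves, 6 of 7 were called higher in olfactory nerve (median 4.28). Their sum was 558.5 to 1028 CPM in olfactory nerve, 121.2 to 623.9 in outer ONL and 223.7 to 304 in trigeminal nerve. In inner ONL it was 1146 to 2410 CPM. Robo1 was at 33.6 to 56.6 CPM in inner ONL and Unc5c at 1.93 to 6.32, both overlapping outer ONL. Robo2 (97.1 to 243 CPM) and Dcc (3.63 to 9.17 CPM) were above every outer ONL library there. The part of these markers in the Robo1 and Robo2 differences, and in those of Unc5c and Dcc given next, was not tested.

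At E16.5 netrin-1 was highest in trigeminal nerve, and of its receptors only Neo1 in every group and Unc5c in olfactory nerve had a mean above 20 CPM. Ntn1 was at 33.9, 34.9 and 33.0 CPM in trigeminal nerve, 3.14, 4.33, 2.77 and 5.67 in outer ONL and 1.86, 1.92, 1.69 and 3.48 in olfactory nerve. Trigeminal nerve lay 8.5-fold above outer ONL (-3.09, SE 0.454, adjusted p = 4.05e-06) and 15.1-fold above olfactory nerve (-3.92, SE 0.470, adjusted p = 2.11e-07), and the 2 olfactory groups overlapped (0.83, SE 0.427, adjusted p = 0.179). Ntn4, a basement membrane netrin, was at 0.613, 1.51, 0.782 and 1.16 CPM in outer ONL, below olfactory nerve at 5.19, 2.35, 3.31 and 6.53 (-2.08, SE 0.461, adjusted p = 0.00115) and trigeminal nerve at 2.23, 5.19 and 4.41 (-1.94, SE 0.480, adjusted p = 0.00265).

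Unc5c, a repulsive netrin receptor, was at 23.4, 40.5, 30.5 and 25.3 CPM in olfactory nerve, 0.613, 4.02, 4.62 and 4.21 in outer ONL and 5.91, 4.58 and 5.80 in trigeminal nerve. Only olfactory nerve stood apart, 8.82-fold above outer ONL (-3.14, SE 0.517, adjusted p = 3.16e-05) and 5.51-fold above trigeminal nerve (2.46, SE 0.550, adjusted p = 0.00115). Unc5a had the reverse order at a much lower level, with 2.45, 3.26, 2.06 and 3.36 CPM in outer ONL, 0, 0.618, 0 and 0.0553 in olfactory nerve and 0.541, 0.577 and 1.76 in trigeminal nerve. The difference between outer ONL and olfactory nerve was 4.00 (SE 0.876, adjusted p = 0.00104), and that between the nerves (-2.47, SE 0.900, adjusted p = 0.045) ended with any of 4 libraries left out (adjusted p = 0.116 to 0.246). Dcc, the attractive receptor, was at 4.20, 4.39, 8.25 and 10.8 CPM in olfactory nerve, 1.38, 3.58, 3.41 and 2.75 in outer ONL and 1.23, 2.16 and 0.367 in trigeminal nerve. Olfactory nerve was above outer ONL (-1.31, SE 0.406, adjusted p = 0.0185), a call that ended without olfactory nerve replicate 4 (adjusted p = 0.0836) or outer ONL replicate 1 (adjusted p = 0.077), and above trigeminal nerve (2.46, SE 0.467, adjusted p = 0.000181). Neo1, at 37.0 to 64.1 CPM over the 3 groups, was the highest of the 6 receptors in each of them and was not called, and Unc5b (5.97 to 15.6 CPM) and Unc5d (0 to 3.44 CPM) were not called either. Of the 6 netrin receptors 0 were called by edgeR between outer ONL and trigeminal nerve, while 1, Dcc, had an unadjusted p below 0.05 (1.15 higher, adjusted p = 0.0657) and 1, again Dcc, was called by DESeq2.

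**Figure D3:**
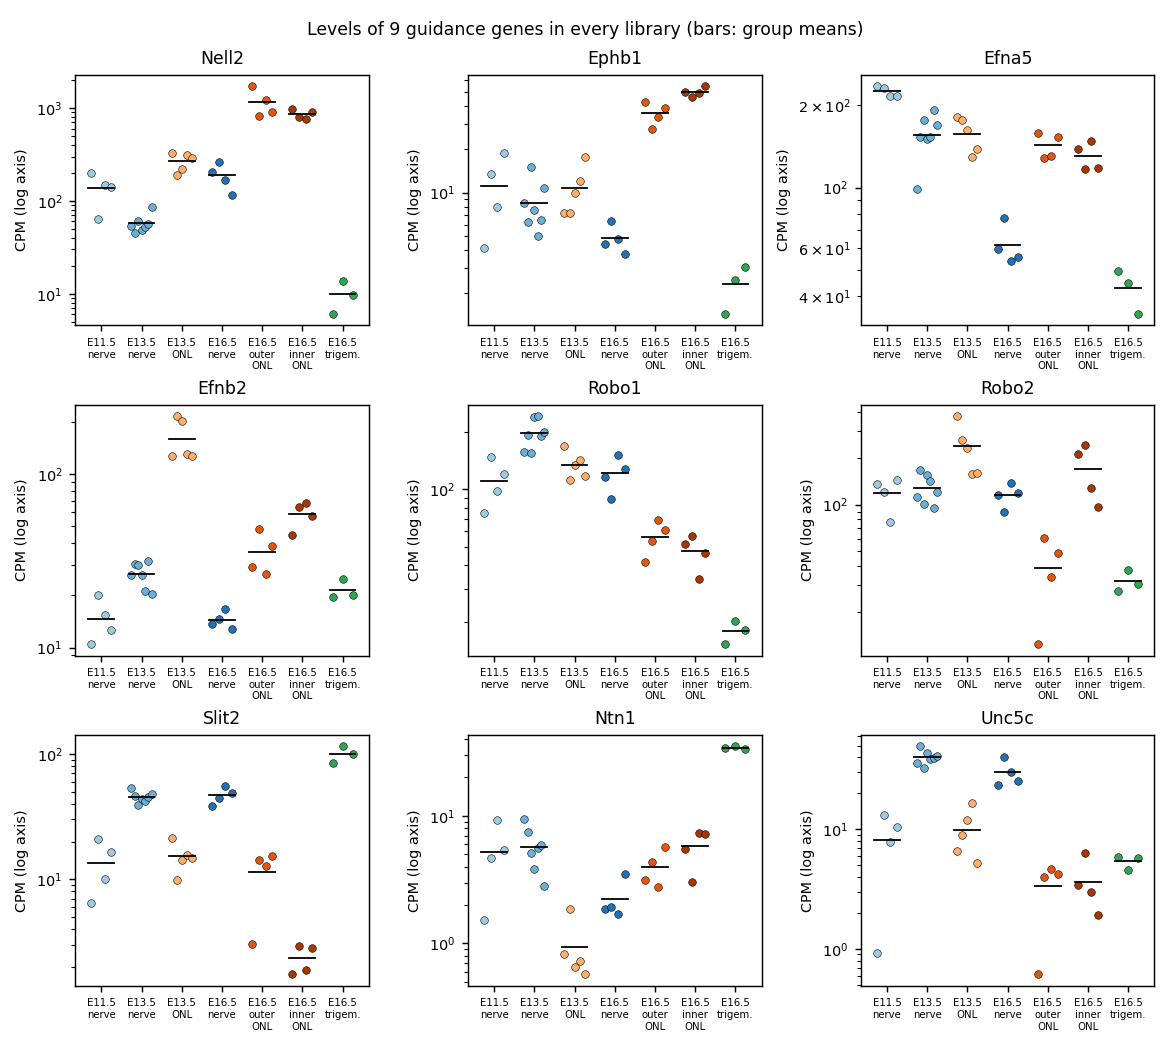
Levels in CPM (log axis) of 9 of the genes in every library (points) of the 7 groups, with bars at the group means; the groups before E16.5 are those of the tabulated means. At E16.5 Nell2, Ephb1 and Efna5 are higher in both ONL groups than in either nerve, Robo1, Robo2 and Unc5c are highest in olfactory nerve among the nerves and outer ONL, and Slit2 and Ntn1 are highest in trigeminal nerve.

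Inner and outer ONL shared the high levels of Nell2, Ephb1, Epha7 and Efna5, and 12 of the 38 genes were called between them, 7 higher in inner ONL and 5 lower, against 14.1% of all genes (8.20% higher, 5.94% lower). The median log2 fold change was 0.127 over the 38 and -0.0518 over all genes. Nell2 differed by -0.44 (SE 0.284, adjusted p = 0.386) and Ephb1 by 0.49 (SE 0.342, adjusted p = 0.439), neither called. Epha3 was at 70.5, 93.2, 54.4 and 36.4 CPM in inner ONL, above every outer ONL library (2.92, SE 0.521, adjusted p = 0.000152), and Epha5 at 29.0, 31.6, 28.6 and 18.6 CPM was likewise above (2.36, SE 0.367, adjusted p = 2.65e-05). Robo2 was at 213, 243, 128 and 97.1 CPM, 4.37-fold higher (2.13, SE 0.340, adjusted p = 3.92e-05), whereas its ligand Slit2, at 1.75, 2.93, 1.88 and 2.83 CPM, was 4.83-fold lower (-2.27, SE 0.353, adjusted p = 2.67e-05). Slit1 was at 5.04, 10.6, 1.80 and 5.06 CPM (2.96, SE 0.740, adjusted p = 0.00531) and Unc5d at 2.49, 12.8, 3.92 and 4.76 CPM (4.16, SE 0.824, adjusted p = 0.000525), both above all outer ONL libraries.

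The ephrin-B ligands Efnb2 (44.5, 64.4, 67.7 and 57.3 CPM in inner ONL) and Efnb3 (72.2, 62.8, 58.9 and 50.1 CPM) were also higher in inner ONL, by 0.72 (SE 0.214, adjusted p = 0.0206) and 0.79 (SE 0.192, adjusted p = 0.00407). Lower in inner ONL were Epha4 (-1.22, SE 0.418, adjusted p = 0.0469), Epha2 (-1.10, SE 0.343, adjusted p = 0.0268), Ephb4 (-0.85, SE 0.205, adjusted p = 0.00364) and Efna4 (-0.52, SE 0.174, adjusted p = 0.0421). The calls of Efnb2, Epha4, Epha2 and Efna4 ended with any of 4, 6, 4 and 5 libraries left out (adjusted p = 0.0566 to 0.195 over these). Without outer ONL replicate 1 the count was 11, and Epha3, Epha5, Robo2 and Slit2 kept their calls (2.55, 1.99, 1.81 and -2.60). Bulb neuron markers moved with these differences: 7 of 7 were called higher in inner ONL, their sum was 502.4 to 957.6 CPM in inner and 20.86 to 176.5 CPM in outer ONL, and 0 of the 7 were at the floor in either. The epithelium and sensory neuron sum was also higher in inner ONL (1146 to 2410 CPM) than in outer ONL (121.2 to 623.9 CPM), with 3 of 7 genes called higher and 2 lower. The paper reports bulb tissue in its inner ONL pieces. It also lists Epha3 among candidate genes that in situ hybridisation did not find in olfactory ensheathing cells or Schwann cells. The part of these markers in the higher levels of Epha3, Epha5, Robo2, Slit1 and Unc5d was not tested.

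At E13.5, 25 of the 38 genes were called between ONL and olfactory nerve, 14 higher in ONL and 11 lower, against 31.5% of all genes (15.4% higher, 16.1% lower). The median log2 fold change was 0.336 over the 38 and -0.0302 over all genes. With the libraries grouped as labelled, 10 were called. Efnb2 was at 126 to 215 CPM in the 5 ONL libraries (median 129.7) and 20.2 to 31.6 CPM in the 7 nerve libraries (median 26.19), a 6.04-fold difference (2.60, SE 0.179, adjusted p = 2.06e-12, as labelled -1.42, adjusted p = 0.00545). The other ephrin-B genes rose with it, so that all 3 were called higher in ONL. Epha3 (73.8 to 221 CPM in ONL, 5.43 to 14.4 in nerve) differed by 3.65 (SE 0.422, adjusted p = 4.52e-08, as labelled -1.28, adjusted p = 0.133) and Epha5 (25.5 to 36.9 against 4.55 to 9.28) by 2.26 (SE 0.292, adjusted p = 3.18e-07, as labelled -1.94, adjusted p = 0.0186). Nell2 was already higher in ONL (190 to 331 CPM) than in nerve (45.2 to 86.4 CPM), by 2.22 (SE 0.238, adjusted p = 1.13e-08, as labelled 0.55, adjusted p = 0.319). None of these ranges overlapped.

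The 6 netrin receptors were all called at E13.5, 3 in each direction. Dcc was at 26.7 to 60.6 CPM in ONL and 1.46 to 4.29 in nerve (3.89, SE 0.339, adjusted p = 2.28e-10, as labelled 2.04, adjusted p = 0.0132), and Unc5a at 1.14 to 13.2 and 0 to 0.746 (3.93, SE 0.668, adjusted p = 2.49e-05, as labelled 0.02, adjusted p = 0.988). Unc5c went the other way, at 5.19 to 16.7 CPM in ONL and 32.8 to 49.5 in nerve (-2.01, SE 0.419, adjusted p = 0.000344, as labelled -1.25, adjusted p = 0.107). Their ligand Ntn1 was at 0.573 to 1.87 CPM in ONL and 2.82 to 9.40 in nerve, a 6.12-fold difference (-2.61, SE 0.410, adjusted p = 7.48e-06, as labelled -0.18, adjusted p = 0.809). Lower in ONL were also Ephb3 (-1.77, SE 0.172, adjusted p = 1.69e-09, as labelled 0.13, adjusted p = 0.689) and Epha1 (-2.77, SE 0.613, adjusted p = 0.000659, as labelled 0.54, adjusted p = 0.537). Unc5d was higher in ONL by 1.76 (SE 0.589, adjusted p = 0.0211, as labelled 1.09, adjusted p = 0.232), a call that ended without the library labelled E11.5_ON1 (adjusted p = 0.061) or E11.5_ON2 (adjusted p = 0.0754). Epha8 was called higher in ONL (adjusted p = 0.0305), with at most 2 counts in any nerve library, and not without any of 3 nerve libraries (adjusted p = 0.0578 to 0.0589). With the groups as labelled, of the remaining genes Ephb4, Efna1, Efna4 and Robo2 had the opposite sign. The remaining called genes were Robo3, Slit1, Efnb1, Efnb3, Robo2 and Ephb2 (higher in ONL) and Slit2, Efna1, Unc5b, Efna4, Ephb4, Robo1 and Neo1 (lower). Of these, Robo3, Slit1, Robo2, Ephb2, Unc5b and Neo1 were each not called without any of 1 to 5 libraries (adjusted p = 0.0503 to 0.125). The 7 bulb neuron markers were all called higher in these ONL libraries, with Tbr1 at a mean of 267 CPM and Neurod6 at 265 CPM, and their part in the higher genes was not tested.

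Along the olfactory nerve from E11.5 to E13.5, 17 of the 38 genes were called, 8 higher at E13.5 and 9 lower, against 36.6% of all genes (20.2% higher, 16.4% lower). The median log2 fold change was -0.0376 over the 38 and 0.0497 over all genes. As labelled, 16 were called. The receptors Epha10, Robo3 and Dcc fell most. Dcc went from 23.6 to 47.0 CPM down to 1.46 to 4.29 (-3.39, SE 0.343, adjusted p = 7.14e-09, as labelled -2.99, adjusted p = 0.000939). Robo3 went from 7.41, 28.3, 20.4 and 25.5 CPM to 0 to 7.47 (-3.44, SE 0.639, adjusted p = 9.76e-05, as labelled -1.46, adjusted p = 0.199), with 1 E13.5 library reaching the E11.5 range. Its ligand Nell2 also fell, from 63.2 to 197 CPM to 45.2 to 86.4 (-1.26, SE 0.247, adjusted p = 0.000197, as labelled -1.60, adjusted p = 0.00612), with overlap. Epha10 fell by 4.03 on the log2 scale (SE 0.563, adjusted p = 1.88e-06, as labelled -0.59, adjusted p = 0.649) from 2.06 to 13.1 CPM, and Efnb3 fell by 1.23 (SE 0.166, adjusted p = 1.16e-06, as labelled -1.04, adjusted p = 0.00483).

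Over the same interval the nerve gained Unc5c, Slit2 and Epha5. Unc5c rose from 0.927 to 13.3 CPM to 32.8 to 49.5 (2.30, SE 0.457, adjusted p = 0.000222, as labelled 1.64, adjusted p = 0.0616), and Slit2 from 6.43 to 21 CPM to 39.4 to 53.5 (1.75, SE 0.297, adjusted p = 2.92e-05, as labelled 1.43, adjusted p = 0.0179). Epha5 rose from 1.03 to 1.95 CPM to 4.55 to 9.28 (2.26, SE 0.355, adjusted p = 1.04e-05, as labelled -1.54, adjusted p = 0.0454). None of the 3 overlapped between stages. Unc5b (1.45, SE 0.407, adjusted p = 0.00594, as labelled 0.96, adjusted p = 0.146) and Neo1 (1.00, SE 0.151, adjusted p = 6.48e-06, as labelled 0.34, adjusted p = 0.253) rose as well. Ntn4 (1.20, SE 0.410, adjusted p = 0.022, as labelled -0.41, adjusted p = 0.539) was not called without the library labelled E13.5_ONL3 (adjusted p = 0.0783), nor Unc5d (-1.67, SE 0.604, adjusted p = 0.0296, as labelled -1.50, adjusted p = 0.131) without that labelled E13.5_ONL5 (adjusted p = 0.137) or E13.5_ON3 (adjusted p = 0.0533). Also called were Efnb2 and Robo1 (higher) and Ephb2, Efna5 and Efna4 (lower), the last not without 1 of the 11 libraries (adjusted p = 0.0627). Mesenchyme markers summed to 358.1 to 490.1 CPM at E11.5 and 828 to 1217 CPM at E13.5, and endothelial markers to 18.48 to 114.9 and 288.2 to 399.4 CPM.

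From E13.5 to E16.5 the nerve changed in 15 of the 38 genes, 6 higher at E16.5 and 9 lower, against 28.8% of all genes (15.2% higher, 13.6% lower). The median log2 fold change was -0.229 over the 38 and -0.0176 over all genes. As labelled, 12 were called, and 9 without olfactory nerve replicate 3 of E16.5. All 5 ephrin-A genes were called. Efna5 fell from 99.0 to 193 CPM to 53.7 to 77.3 (-1.34, SE 0.150, adjusted p = 1.17e-07, as labelled -1.30, adjusted p = 1.15e-06), without overlap. Efna4 fell by 0.94 (SE 0.156, adjusted p = 4.12e-05, as labelled -0.83, adjusted p = 0.00195), Efna2 by 1.00 (SE 0.270, adjusted p = 0.00561, as labelled -0.99, adjusted p = 0.00711) and Efna3 by 1.15 (SE 0.421, adjusted p = 0.0394, as labelled -1.09, adjusted p = 0.0636). The call of Efna2 ended without nerve replicate 3 of E16.5 (adjusted p = 0.0512). That of Efna3 ended with any of 6 libraries left out (adjusted p = 0.0625 to 0.123), and that of the higher Efna1 with any of 7 (adjusted p = 0.0605 to 0.102).

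Nell2 rose over this interval from 45.2 to 86.4 CPM to 115 to 264 (1.71, SE 0.247, adjusted p = 6.32e-06, as labelled 1.11, adjusted p = 0.0401), with no overlap. The 4 glial genes were all called higher over the same interval (median 1.48), their sum going from 418.6 to 921.8 CPM to 1298 to 3175, and their part in the Nell2 rise was not tested. Epha3 rose by 1.66 (SE 0.426, adjusted p = 0.00381, as labelled 0.56, adjusted p = 0.532) and Epha2 by 1.02 (SE 0.288, adjusted p = 0.00818, as labelled 1.08, adjusted p = 0.00857). Dcc was 1.11 higher (SE 0.348, adjusted p = 0.0166, as labelled 0.05, adjusted p = 0.968) and was not called without nerve replicate 4 of E16.5 (adjusted p = 0.0839). Ntn1 fell by 1.35 (SE 0.394, adjusted p = 0.0103, as labelled -1.26, adjusted p = 0.0575, without nerve replicate 3, adjusted p = 0.056). Efnb2 fell by 0.87 (SE 0.199, adjusted p = 0.00133, as labelled -1.53, adjusted p = 0.00267), Neo1 by 0.74 (SE 0.150, adjusted p = 0.000383, as labelled -0.69, adjusted p = 0.0106) and Robo1 by 0.70 (SE 0.183, adjusted p = 0.00436, as labelled -0.61, adjusted p = 0.0432). Ephb6 (higher) and Ephb2 (lower) were also called, but not without any of 5 and any of 3 libraries (adjusted p = 0.0512 to 0.184).

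Between E13.5 ONL and E16.5 outer ONL 26 of the 38 genes were called, 8 higher at E16.5 and 18 lower, against 41.9% of all genes (21.9% higher, 20.0% lower). The median log2 fold change was -0.518 over the 38 and 0 over all genes. As labelled, 18 were called, and without outer ONL replicate 1, 22. Nell2 rose from 190 to 331 CPM to 820 to 1726 (2.12, SE 0.274, adjusted p = 3.15e-07, as labelled 3.20, adjusted p = 3.83e-06), and Ephb1, called although outside the 12 largest changes, from 7.19 to 17.6 CPM to 27.8 to 42.6 (1.70, SE 0.331, adjusted p = 0.000122, as labelled 1.69, adjusted p = 0.00035). These were higher at E16.5 in every library. The 4 glial genes were all called higher too (median 2.05), their sum going from 4055 to 6254 CPM to 14974 to 26951, and their part in these rises was not tested. Efna5, by contrast, stayed at 129 to 181 CPM at E13.5 and 129 to 158 at E16.5 (-0.14, SE 0.152, adjusted p = 0.481, as labelled -0.59, adjusted p = 0.00494). Ntn1 rose by 2.1 (SE 0.438, adjusted p = 0.000269, as labelled -0.25, adjusted p = 0.722).

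The genes that were lower in E16.5 outer ONL than in E13.5 ONL included all 3 Robos and 4 netrin receptors. Robo2 went from 157 to 376 CPM to 12.3 to 60.7 (-2.61, SE 0.338, adjusted p = 3.15e-07, as labelled -1.62, adjusted p = 0.000303), Robo3 from 3.67 to 9.86 CPM to at most 0.356 (-5.49, SE 0.972, adjusted p = 3.48e-05, as labelled -6.87), and Dcc from 26.7 to 60.6 CPM to 1.38 to 3.58 (-4.09, SE 0.428, adjusted p = 8.74e-09, as labelled -3.31, adjusted p = 0.000725). Epha3 fell by 3.70 (SE 0.527, adjusted p = 1.48e-06, as labelled 0.13, adjusted p = 0.898), Epha5 by 2.65 (SE 0.361, adjusted p = 7.32e-07, as labelled 0.87, adjusted p = 0.275) and Efnb2 by 2.17 (SE 0.215, adjusted p = 3.46e-09, as labelled 1.18, adjusted p = 0.0122). Slit1 was lower by 2.61 (SE 0.718, adjusted p = 0.00397, as labelled -2.18, adjusted p = 0.0321), Unc5d by 3.73 (SE 0.804, adjusted p = 0.000377, as labelled -3.42, adjusted p = 0.00291) and Efna3 by 3.10 (SE 0.502, adjusted p = 9.97e-06, as labelled -3.37). Epha8 was called lower (adjusted p = 0.0171), with at most 1 count in any outer ONL library. The bulb neuron sum fell from 994.7 to 1254 CPM in these E13.5 libraries to 20.86 to 176.5 CPM in outer ONL, and its part in these differences was not tested. Inner ONL at E16.5, not used in this comparison, had a bulb neuron sum of 502.4 to 957.6 CPM. Robo2 was at 97.1 to 243 CPM there, Epha3 at 36.4 to 93.2 and Dcc at 3.63 to 9.17. The rest of the called genes were Ephb3, Efna1, Ephb6, Epha7 and Ephb4 (higher) and Ntn4, Unc5c, Robo1, Efna2, Epha4, Neo1, Efnb3 and Ephb2 (lower). Among them Epha4, Epha7, Ephb2, Ephb4, Ephb6, Efna1 and Efnb3 were each not called without any of 2 to 7 libraries (adjusted p = 0.0501 to 0.2).

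The change of the ONL to nerve difference with stage was tested as an interaction, which compared E16.5 (outer ONL minus nerve) with E13.5 (ONL minus nerve). Of the 38 genes 15 were called, 5 with a higher and 10 with a lower difference at E16.5, against 12.3% of all genes (5.59% higher, 6.75% lower). The median was -0.321 over the 38 and 0.044 over all genes. As labelled, 11 were called, and without outer ONL replicate 1, 14. Ephb1 was level between ONL and nerve at E13.5 (0.36, SE 0.293, adjusted p = 0.402) and 2.88 apart at E16.5, an interaction of 2.52 (SE 0.468, adjusted p = 0.000388, as labelled 2.68, adjusted p = 0.000487). Efna5 also moved from no detectable difference (0.01, SE 0.133, adjusted p = 0.967, as labelled 0.50, adjusted p = 0.014) to 1.21, an interaction of 1.20 (SE 0.210, adjusted p = 0.000202, as labelled 0.71, adjusted p = 0.0275). Ntn1 changed from lower to overlapping (interaction 3.44, SE 0.591, adjusted p = 0.000166, as labelled 1.01, adjusted p = 0.375).

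The lower differences at E16.5 were led by Epha3 (-5.36, SE 0.670, adjusted p = 3.71e-06, as labelled -0.43) and Dcc (-5.20, SE 0.538, adjusted p = 2.38e-07, as labelled -3.35, adjusted p = 0.013), which were higher in ONL than in nerve at E13.5 and lower in outer ONL than in nerve at E16.5. Robo2 did the same (-2.47, SE 0.428, adjusted p = 0.00018, as labelled -1.41, adjusted p = 0.0272), and Robo3 had an interaction of -4.34 (SE 1.18, adjusted p = 0.0123, as labelled -5.34, adjusted p = 0.00876). In inner ONL at E16.5, which this test did not use, the means were 63.6 CPM for Epha3, 170 for Robo2 and 6.06 for Dcc. Those in olfactory nerve at E16.5 were 27.6, 116 and 6.92 CPM. Efnb2 kept a higher level in ONL at both stages with a smaller difference at E16.5 (-1.30, SE 0.279, adjusted p = 0.00182, as labelled 2.71, adjusted p = 0.000662). For Nell2 the ONL to nerve difference was 2.22 at E13.5 and 2.64 at E16.5, and a change was not called (0.41, SE 0.371, adjusted p = 0.572), but it was with the groups as labelled (2.09, adjusted p = 0.0216). The other called genes were Unc5d, Slit1, Ntn4, Epha5 and Efna3 (lower) and Ephb3 and Efna4 (higher). The calls of Slit1, Efna3 and Efna4 ended with any of 5, 7 and 2 libraries left out (adjusted p = 0.0502 to 0.087), and that of Unc5d without nerve replicate 3 of E16.5 (adjusted p = 0.238).

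**Figure D4:**
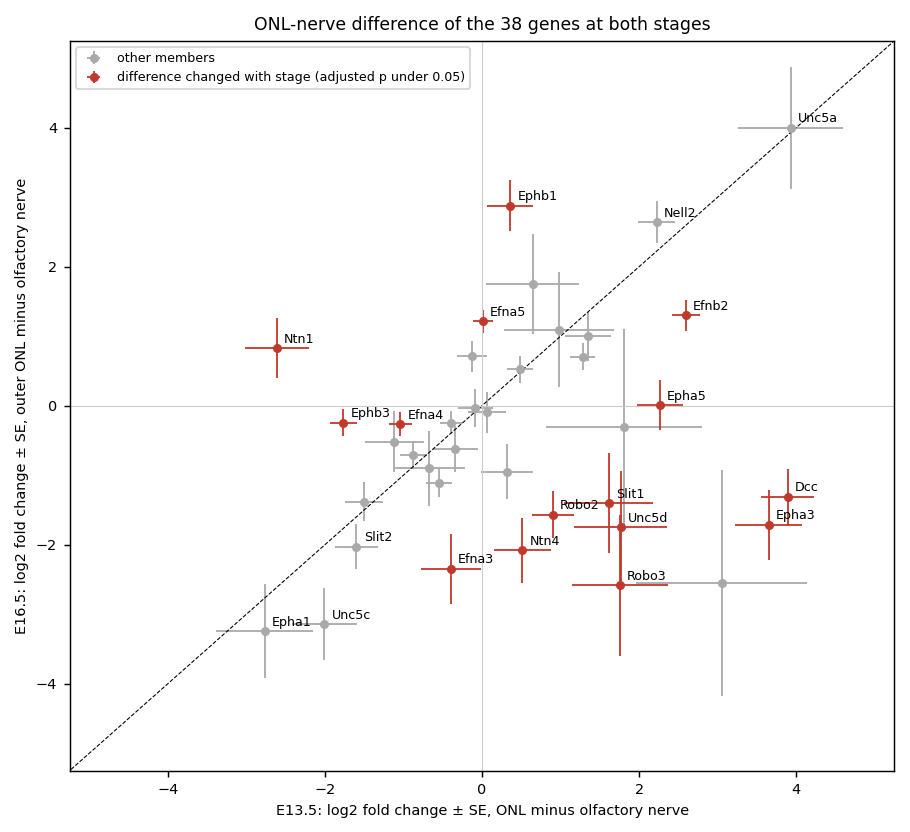
ONL minus nerve log2 fold change with standard errors at E13.5 (x axis) and E16.5 (y axis, outer ONL) for the 38 genes, with the dashed line at equal differences; red marks genes whose difference changed with stage. Nell2 lies near the line at 2.22 and 2.64, whereas Dcc and Epha3 lie far below it and Ephb1 above it.

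Other genes of these pathways were taken from a list of 33 co-receptors, further ligands and intracellular partners, 32 of which were in the table and 30 of which were tested. Of the 30, 10 were called between outer ONL and olfactory nerve (5 higher, 5 lower), which is 33.3% against 22.0% of all genes. Between outer ONL and trigeminal nerve 11 were called (7 higher, 4 lower, 36.7% against 25.8%), between the nerves 9 (3 higher in olfactory nerve, 6 lower, 30% against 23.6%) and between inner and outer ONL 8 (6 higher, 2 lower, 26.7% against 14.1%). With the earlier libraries grouped as labelled in the same fit, the counts of these E16.5 comparisons were 7, 10, 7 and 2. Fyn, a kinase used by Dcc and ephrins, was higher in outer ONL than in olfactory nerve by 1.91 (SE 0.242, adjusted p = 5.85e-07), and Srgap3, which binds Robos, by 1.65 (SE 0.256, adjusted p = 1.24e-05). Flrt2, which binds Unc5 receptors, was lower there by 1.66 (-1.66, SE 0.286, adjusted p = 5.92e-05). At E13.5, 17 of 30 were called between ONL and nerve (13 higher, 4 lower, 56.7% against 31.5%), and 8 as labelled. Draxin, a secreted ligand of Dcc, was higher in ONL at E13.5 by 3.14 (SE 0.373, adjusted p = 7.32e-08, as labelled -0.22, adjusted p = 0.808), and it was lower in E16.5 outer ONL than in E13.5 ONL by 4.25 (-4.25, SE 0.495, adjusted p = 5.71e-08, as labelled -1.91, adjusted p = 0.026), in the same direction as Dcc. In the nerve 15 were called from E11.5 to E13.5 (7 higher, 8 lower, 50% against 36.6%) and 12 from E13.5 to E16.5 (4 higher, 8 lower, 40% against 28.8%). In the ONL from E13.5 to E16.5 14 were called (3 higher, 11 lower, 46.7% against 41.9%), and in the interaction 6 (0 higher, 6 lower, 20% against 12.3%). As labelled these counts were 10, 9, 18 and 6, the last with 4 higher and 2 lower. Several of these shares are near those of all genes.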

How the data were processed

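Tissue was cut by laser, RNA was extracted with PicoPure, cDNA was made with SMART-seq V4 and libraries with Nextera XT, and paired-end reads were sequenced. The deposited values are raw counts per Ensembl gene, which the authors made by aligning reads with TopHat2 (2.1.0) to mm10 and counting them with HTSeq. The counting mode and strand setting are not given in the sources used here, so reads of genes that overlap on opposite strands cannot be told apart. A row with no gene name and no values (1 in all) was left out, and 47310 of 47729 gene IDs matched a GENCODE symbol. Library totals of 3512627 to 36705535 counts set the precision.

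Counts were tested with edgeR (4.0.16, in R 4.3.3) by quasi-likelihood with TMM scaling in 1 fit of 31 libraries in 7 groups, and p-values were adjusted by Benjamini-Hochberg over the 19332 genes that passed filterByExpr. SE is the log2 fold change divided by the square root of F. CPM used TMM-scaled totals, and levels per kb were divided by union exon length. A gene with at most 3 counts in every library of a group was taken to be at the floor, and no fold is given against such a group. The groups before E16.5 followed the study's tabulated group means, which 31 of 31 libraries matched over 1589 genes, while 21 matched their own labels. The scripts were tested on simulated counts.

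The genes, the partner list and the marker lists were chosen with earlier results of these data known. The glial sum covers 4 of the 5 listed genes, since 1 is not reported here. This sum and the partner counts as labelled were added after seeing the data. In each comparison, fold changes, SE and adjusted p were to be given for the 12 called genes with the largest change, and other called genes named; Nell2, partners of called genes and the highest gene of a family were named also when not called. Values for further genes were added with their values known, to account for each of the 38.

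Replicate numbers were checked by correlating deviations from group means over 10066 genes (log2 CPM, prior count 2). Same-numbered olfactory nerve and outer ONL libraries of E16.5 correlated at 0.254 to 0.585, against -0.421 to 0.362 for other pairs. These were taken as paired in the block alternative, but the main fit held no block. Same-numbered trigeminal nerve libraries correlated at -0.351 to 0.292 with outer ONL and -0.337 to 0.178 with olfactory nerve, while other pairs reached 0.525 and 0.607. Inner and outer ONL correlated at -0.139 to 0.304, against -0.248 to 0.319. Inner ONL and trigeminal nerve were not taken as paired with other groups, although the block was also run there by number. Alternatives were DESeq2 (1.42.0), other scalings (relative log expression, total count, upper quartile), no filter, a filter at 5 CPM, a call that also needs a change of 1 or more (log2), fits of fewer groups, a replicate block, the labels' groups and leaving out each library. Promoter windows came from RefSeq (GRCm38.p6), and figures were drawn with Matplotlib (3.10.9).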

Additional observations from a re-analysis of the deposited data

Results flagged for a closer look

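Of 118 levels checked (a gene in a group with a mean of at least 10 CPM), 5 had a library far from the rest of its group, and chance gives about 1 in 20. Trigeminal nerve, with 3 libraries, was too small a group for this check and was left out of it. Epha3 was at 221 CPM in the library labelled E11.5_ON1, used as E13.5 ONL, with the others at 73.8 to 98.7. Nell2 was at 86.4 CPM in the library labelled E13.5_ONL1, used as E13.5 nerve, with the others at 45.2 to 61.2. At E16.5, Efna1 was at 31.4 CPM in inner ONL replicate 3 (others 26.8 to 27.3), Efna4 at 22.3 CPM in outer ONL replicate 4 (others 15.5 to 16.3) and Efnb3 at 16.1 CPM in olfactory nerve replicate 1 (others 23.2 to 23.8).

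The difference between ONL and olfactory nerve changed between E13.5 and E16.5 for 15 genes by the interaction test in edgeR. The log2 difference at E16.5 (outer ONL) minus that at E13.5 was below 0 for Epha3 (-5.36), Dcc (-5.20), Robo3 (-4.34), Unc5d (-3.52), Slit1 (-3.02), Ntn4 (-2.60), Robo2 (-2.47), Epha5 (-2.26), Efna3 (-1.95) and Efnb2 (-1.30). It was above 0 for Ntn1 (3.44), Ephb1 (2.52), Ephb3 (1.52), Efna5 (1.20) and Efna4 (0.77). E13.5 pieces were not divided into outer and inner ONL, and the 5 libraries used as E13.5 ONL held more bulb neuron marker RNA (994.7 to 1254 CPM summed) than those of outer ONL at E16.5 (20.86 to 176.5 CPM). The same sum was 143.5 to 253.6 CPM in olfactory nerve and 183.9 to 212 CPM in trigeminal nerve at E16.5.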

How the results depend on the processing

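The grouping of the libraries before E16.5 changed the results most. With the groups of the labels, 10 genes in place of 25 were called between ONL and nerve at E13.5. At E16.5, 15 of 74 calls were lost with these groups and 0 reversed. No E16.5 library changed group, but the spread was estimated over all groups. The direction turned, all under this setting, for Epha1 (0.54), Epha3 (-1.28), Epha5 (-1.94), Ephb3 (0.13), Ephb4 (0.12), Efna1 (0.0053), Efna4 (0.52), Efnb2 (-1.42) and Robo2 (-0.16) between ONL and nerve at E13.5, and for Epha5 (-1.54), Efna4 (0.97), Efnb2 (-2.01) and Ntn4 (-0.41) in the nerve from E11.5 to E13.5. It also turned for Epha3 (0.13), Epha5 (0.87), Ephb3 (-0.50), Ephb4 (-0.35), Efna1 (-0.61), Efnb2 (1.18) and Ntn1 (-0.25) in the ONL from E13.5 to E16.5, and for Epha5 (1.94), Ephb3 (-0.37), Efna4 (-0.79) and Efnb2 (2.71) in the interaction. Where a call also needed a change of 1 or more on the log2 scale, 11 of 17 calls were left in the nerve from E11.5 to E13.5 and 8 of 15 from E13.5 to E16.5. Leaving out 1 library gave 9 to 15 calls for the nerve from E13.5 to E16.5 (9 without olfactory nerve replicate 3 of E16.5), reversed no direction in any comparison and ended 64 of the 549 calls re-run in this way at E16.5 and 94 of 1180 in comparisons with earlier stages. The other counts stayed within 1.5 times the reported ones under every setting run. Total count scaling put the all-gene median (log2) at -0.13 for outer ONL against olfactory nerve and at 0.24 for olfactory against trigeminal nerve, and reversed no call. With the replicate number as a block, 22, 18, 16 and 14 genes were called in the 4 comparisons at E16.5 (19, 22, 21 and 12 without it), and 7 of 71 calls were lost, those of Epha7, Efnb2 and Efnb3 between outer ONL and trigeminal nerve, Slit1, Epha1 and Efna5 between the nerves, and Efna4 between inner and outer ONL. The block added Epha4, Ephb2 and Nell1 between outer ONL and olfactory nerve, and Efna1, Dcc and Nell1 between inner and outer ONL. Replicate numbers were taken as pairs only for outer ONL and olfactory nerve, and the losses fall in the other comparisons. In those, losses and gains do not show what a fit paired by embryo would give. Over all genes, fits of 2 groups gave 3923 calls for outer ONL against olfactory nerve and 5103 with the block. For outer ONL against trigeminal nerve they gave 4836 and 3317, and between the nerves 4686 and 3183. In comparisons with earlier stages no paired analysis was possible because the tabulated groups take their replicate numbers from several labels. Library totals limit what can be said of genes of a few counts, such as Robo3, Epha8 and Epha10 at E16.5.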
